A study of Mus musculus with 16 samples.

Results

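The 10 Mb of mouse chromosome 12 from position 100000001 to 110000000 (genome build mm9) lie on the centromeric side of Igh, the immunoglobulin heavy chain locus. They begin 14.4 Mb and end 4.43 Mb from its centromeric edge, taken as the base after the last junction labelled Tmem121, at position 114427082. All rows of the 16 junction lists whose prey maps to this interval were kept, 512 rows, of which 1 repeated another row in full. The remaining 511 junctions are 511 of 33479 outside chromosome 15 and of 141167 in all, and 2442 junctions lie on chromosome 12 below Igh. The interval is set by position, so the rule did not fix the number of junctions in it. Earlier results of these data were known when it was chosen.

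High-throughput genome-wide translocation sequencing (HTGTS) maps the genomic ends, called prey, that become joined to a chosen double-strand break, called the bait. The bait lay on chromosome 15, where 1 Myc allele carries 25 I-SceI sites within intron 1, and a retrovirus that encodes I-SceI and GFP supplied the nuclease. Cells were IgM+ B cells from the spleens of 129sv mice aged 6 to 8 weeks. There were 5 groups. WT cells (n = 4 libraries), ATM-/- cells (n = 3) and WT cells given the ATM inhibitor KU55933 at 10 µM from infection onwards (n = 3) received anti-CD40 (1 µg/mL) with IL4 (20 ng/mL), and infection followed at 24 h and harvest on day 4. Cells labelled WT (n = 3) and cells labelled ATM-/- (n = 3) received a stimulus that the labels call RP105 (2 µg/mL). Infection was at 48 h and harvest on day 5. ATM-/- is a genotype that the cells carried before the culture, whereas KU55933 was present from infection only. The labels do not say whether libraries of a group came from separate mice or cultures, so p-values measure only the spread between these libraries, which may be technical.

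ATM, a kinase activated at broken DNA, signals the damage and keeps broken ends together for repair, during V(D)J recombination in developing B cells and during class switch recombination in activated ones. Igh is the locus at which both reactions cut, and it lies near the telomeric end of chromosome 12. Anti-CD40 with IL4 induces class switching, whereas stimulation through RP105, a surface receptor of B cells, drives proliferation with little of it. A junction on the plus strand reads from the join towards the telomere, and so towards Igh here, and a junction on the minus strand reads towards the centromere.

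Libraries held 586 to 5604 junctions outside chromosome 15, of 4484 to 18264 in all, and the interval held 1 to 81 per library. As a check of the cell type, junctions labelled with Igh switch regions numbered 525 in WT, 299 in ATM-/- and 1107 in KU55933 libraries under anti-CD40/IL4, and 27 and 18 in the RP105 libraries labelled WT and ATM-/-, whereas the T cell receptor loci Tra/Trd, Trb and Trg held 11, 3 and 2 in all. DNA junctions do not measure Atm itself, so the genotype was not checked in any library. The RP105 groups are called by their labels throughout, because their difference ran opposite to that under anti-CD40/IL4. Whether labels or files of these groups were exchanged was not tested, and an exchange would turn the direction of every genotype difference under RP105 and change what each comparison with anti-CD40/IL4 sets side by side. Among 120 pairs of libraries, KU55933 replicates 1 and 2 shared 166 positions outside chromosome 15 and replicates 3 of both RP105 groups shared 138. By their read names, each of these pairs came from 1 sequencing run. The other 118 pairs shared 0 to 33, with a median of 10. In the interval, 4 of the 11 junctions of RP105 replicate 3 labelled ATM-/- were also in RP105 replicate 3 labelled WT. KU55933 replicates 1 and 2 shared 1, and RP105 replicates 2 and 3 labelled WT, from different runs, shared 1. How the positions came to be shared was not tested, and results are given with and without them where this changed a value.

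The prey sequences of these 6 shared positions are shown first, since they are the only positions of the interval found in more than 1 library, followed by the 4 junctions nearest the middle of the fullest 1 Mb window, from 109 to 110 Mb. Each is printed 5′ to 3′ from the join outwards on mm9, and capitals mark the bases that the prey and bait alignments share at the join, read from negative values of the deposited gap column.
chr12:102077579-102077638 (plus strand): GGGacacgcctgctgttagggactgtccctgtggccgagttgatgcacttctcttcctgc
chr12:106839678-106839737 (plus strand): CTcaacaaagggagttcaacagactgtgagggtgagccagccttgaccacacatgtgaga
chr12:107239977-107240011 (minus strand): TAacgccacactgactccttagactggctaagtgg
chr12:108437558-108437617 (plus strand): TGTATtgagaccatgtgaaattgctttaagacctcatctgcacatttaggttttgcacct
chr12:109445463-109445498 (minus strand): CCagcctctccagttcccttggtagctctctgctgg
chr12:109939658-109939717 (minus strand): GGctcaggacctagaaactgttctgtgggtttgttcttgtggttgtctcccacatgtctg
chr12:109497441-109497500 (plus strand): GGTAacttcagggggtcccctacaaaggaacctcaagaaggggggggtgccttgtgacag
chr12:109481762-109481802 (plus strand): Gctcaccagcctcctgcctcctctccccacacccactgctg
chr12:109476638-109476683 (minus strand): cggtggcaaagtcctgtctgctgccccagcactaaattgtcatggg
chr12:109533030-109533064 (minus strand): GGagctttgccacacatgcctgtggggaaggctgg
The position at 102077579 carries the label 9030617O03Rik, a name that RefSeq lists as a synonym of Dglucy. The 4 sequences between 109445463 and 109497500 carry the label Ccdc85c, and 109939717 carries Degs2, which encodes a sphingolipid desaturase and hydroxylase. Overlaps at the join ran from 1 to 5 bases in 9 of these 10 sequences, and the junction at 109476683 had 15 inserted bases in place of an overlap. The join at 108437558 is printed as it stands in the library labelled WT, and in the library labelled ATM-/- its listed overlap was over 10 bases and was not read as a join. Of the 6 shared positions, 4 were shared by the RP105 libraries labelled WT and ATM-/-.

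Under anti-CD40/IL4, the interval took more of the junctions in ATM-/- cells than in WT cells. The 4 WT libraries held 2 of 1307, 7 of 910, 7 of 1509 and 3 of 731 junctions outside chromosome 15. Their shares were 0.153% (exact Clopper-Pearson 95% interval 0.0185 to 0.552), 0.769% (0.31 to 1.58), 0.464% (0.187 to 0.953) and 0.41% (0.0847 to 1.19). The 3 ATM-/- libraries held 54 of 2192, 47 of 2714 and 51 of 1912, or 2.46% (1.86 to 3.2), 1.73% (1.28 to 2.3) and 2.67% (1.99 to 3.49). No ATM-/- library overlapped a WT library. The mean share was 2.29% ± 0.492 (SD, n = 3) in ATM-/- and 0.449% ± 0.253 (SD, n = 4) in WT cells, a ratio of 5.09. Intervals of this kind cover counting error only.

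In the fit over all 10 Mb windows outside chromosome 15, the log2 fold change between ATM-/- and WT was 2.38 (SE 0.34, edgeR's quasi-likelihood test, adjusted p = 6.14e-08). The interval was the only one of 258 windows called higher at an adjusted p under 0.05, 0.388% of them, and 0.0% were called lower. The median log2 fold change over all windows was -0.02. Of the 10 sequencing runs, 2 held a library of each genotype, and within them the log2 ratio of the shares was 1.9 and 2.7. All 22 alternative settings kept the call, with log2 fold changes between 2.05 and 2.72.

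**Figure D1:**
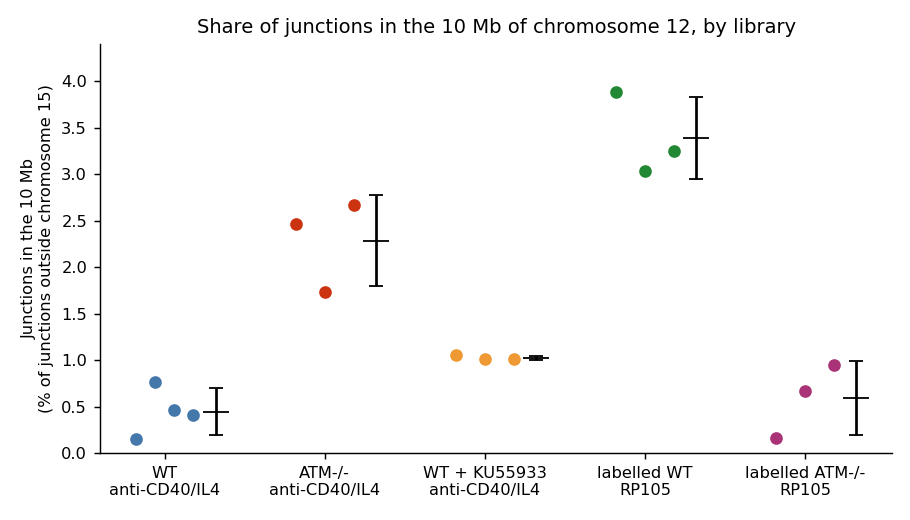
Junctions in the interval as a percentage of all junctions outside chromosome 15, with 1 point per library in each of the 5 groups and, beside the points, the group mean with its SD. The ATM-/- libraries under anti-CD40/IL4 (1.73 to 2.67%) and the RP105 libraries labelled WT (3.03 to 3.88%) lie above all others.

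WT cells given KU55933 stood between WT and ATM-/- cells. Their libraries held 38 of 3606, 55 of 5432 and 57 of 5604 junctions, or 1.05% (0.747 to 1.44), 1.01% (0.764 to 1.32) and 1.02% (0.771 to 1.32). They lay above all 4 WT libraries and below all 3 ATM-/- libraries. The mean was 1.03% ± 0.0226 (SD, n = 3), 2.29 times the WT mean, and the ATM-/- mean was 2.23 times the KU55933 mean.

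Against WT, the log2 fold change with KU55933 was 1.25 (SE 0.36, 95% interval 0.55 to 1.95) and missed the threshold (edgeR adjusted p = 0.0528). In this comparison 0.388% of windows were called higher, and 0.0% lower, and the interval ranked 3 of 258 by p. Other windows of chromosome 12 were also higher but uncalled. Their log2 fold changes were 1.17 at 60 to 70 Mb, 1.37 at 70 to 80 Mb (edgeR adjusted p = 0.0524), 0.59 at 80 to 90 Mb and 0.96 at 90 to 100 Mb. The interval was called in 4 of 21 alternatives, over which its adjusted p ran from 0.0379 to 0.556. They were scaling by TMM factors (log2 fold change 1.32, adjusted p = 0.0397), removing positions shared within a run (1.25, 0.047), leaving out WT replicate 2 (1.58, 0.0465) and leaving out KU55933 replicate 3 (1.26, 0.0379). Treatment and sequencing run cannot be told apart here, because by the read names no run held both WT and KU55933 libraries.

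ATM-/- exceeded KU55933 by a log2 fold change of 1.13 (SE 0.23, edgeR adjusted p = 8.55e-04), again the only window called higher (0.388%), with 0.0% called lower. The call ended with the sequencing run as a random block (1.13, adjusted p = 0.104) and for the 5 Mb farther from Igh alone (0.98, adjusted p = 0.133), over a range of 4.79e-05 to 0.133 in 20 alternatives. No sequencing run held libraries of both ATM-/- and KU55933, so genotype or inhibitor and run cannot be told apart here either. The comparisons of WT, ATM-/- and KU55933 share libraries and are not independent of one another.

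Under RP105 the order of the genotype labels was the opposite. Libraries labelled WT held 63 of 1624, 29 of 956 and 81 of 2496 junctions, or 3.88% (2.99 to 4.94), 3.03% (2.04 to 4.33) and 3.25% (2.59 to 4.02). Those labelled ATM-/- held 1 of 586, 5 of 744 and 11 of 1156, or 0.171% (0.00432 to 0.947), 0.672% (0.219 to 1.56) and 0.952% (0.476 to 1.7). Every library labelled WT lay above every library labelled ATM-/-. The means were 3.39% ± 0.44 and 0.598% ± 0.396 (SD, n = 3 each), a ratio of 5.66.

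The log2 fold change of the label ATM-/- against the label WT was -2.32 (SE 0.35, edgeR adjusted p = 6.93e-07). Of the 258 windows, 2 were called lower (0.775%), this one and chromosome 12 from 90 to 100 Mb (-2.42, adjusted p = 0.0165), and 0.0% higher. Within the 2 runs that held both labels the log2 ratio was -2.75 and -1.77. Without RP105 replicate 3 labelled ATM-/- the log2 fold change was -2.91. Without positions shared within a run the means were 3.41% ± 0.414 and 0.52% ± 0.297 (SD, n = 3 each) and the log2 fold change was -2.60. All 21 alternatives kept this call.

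Set across stimuli, the libraries labelled WT held 7.54 times the share under RP105 that they held under anti-CD40/IL4 (log2 fold change 2.98, SE 0.32, edgeR adjusted p = 2.47e-12). In that comparison 5 of 258 windows were called higher (1.94%). Among them were chromosome 12 from 70 to 80 Mb (1.73), from 80 to 90 Mb (1.24) and from 90 to 100 Mb (2.09). The libraries labelled ATM-/- held 3.82 times the share under anti-CD40/IL4 that they held under RP105 (RP105 against anti-CD40/IL4, log2 fold change -1.73, SE 0.37, edgeR adjusted p = 0.00109), where 1.55% of windows were called lower. Chromosome 12 from 90 to 100 Mb (-1.98, edgeR adjusted p = 0.0483) and from 110 to 120 Mb (-1.84, 6.06e-06), which holds Igh, were also called lower. The interval's value was -2.31 without RP105 replicate 3 labelled ATM-/-. Its call ended for the 5 Mb farther from Igh alone (-1.64, adjusted p = 0.11), over a range of 7.19e-05 to 0.11 in 20 alternatives. The difference between the genotype effects, RP105 minus anti-CD40/IL4, was -4.70 (SE 0.49, edgeR adjusted p = 2.34e-13). It was called lower in 1.55% of windows, 4 of 258, all on chromosome 12 between 70 and 110 Mb. With sequencing run as a block the difference was -4.34 (edgeR adjusted p = 2.53e-09), over a range of 1.26e-19 to 5.35e-07 in 28 alternatives, and without RP105 replicate 3 labelled ATM-/- it was -5.29. In the comparisons of RP105 with anti-CD40/IL4 within a genotype label, stimulus, time of infection, day of harvest and sequencing run cannot be told apart. In the difference between genotype effects, stimulus, time of infection and day of harvest cannot.

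Along chromosome 12, each group's mean density was higher in the interval than at 90 to 100 Mb, and higher again from 110 Mb to Igh. In ATM-/- cells the density, in junctions per Mb per 1000 junctions outside chromosome 15, was 1.31 ± 0.267 at 80 to 90 Mb, 0.676 ± 0.321 at 90 to 100 Mb, 2.29 ± 0.492 in the interval and 4.87 ± 0.669 from 110 Mb to Igh (SD, n = 3). With KU55933 the same 4 densities were 0.995 ± 0.125, 0.388 ± 0.0982, 1.03 ± 0.0226 and 5.00 ± 0.717 (SD, n = 3). Between 110 Mb and Igh these 2 groups differed by less than their spread, whereas in the interval they did not overlap. In WT cells the densities were 0.646 ± 0.214, 0.207 ± 0.0931, 0.449 ± 0.253 and 1.54 ± 0.478 (SD, n = 4). The RP105 libraries labelled WT reached 1.49 ± 0.218, 0.873 ± 0.172, 3.39 ± 0.44 and 7.15 ± 0.785, and those labelled ATM-/- 0.496 ± 0.477, 0.143 ± 0.132, 0.598 ± 0.396 and 1.79 ± 0.823 (SD, n = 3 each). In every group mean, 90 to 100 Mb was lower than the windows on either side of it.

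**Figure D2:**
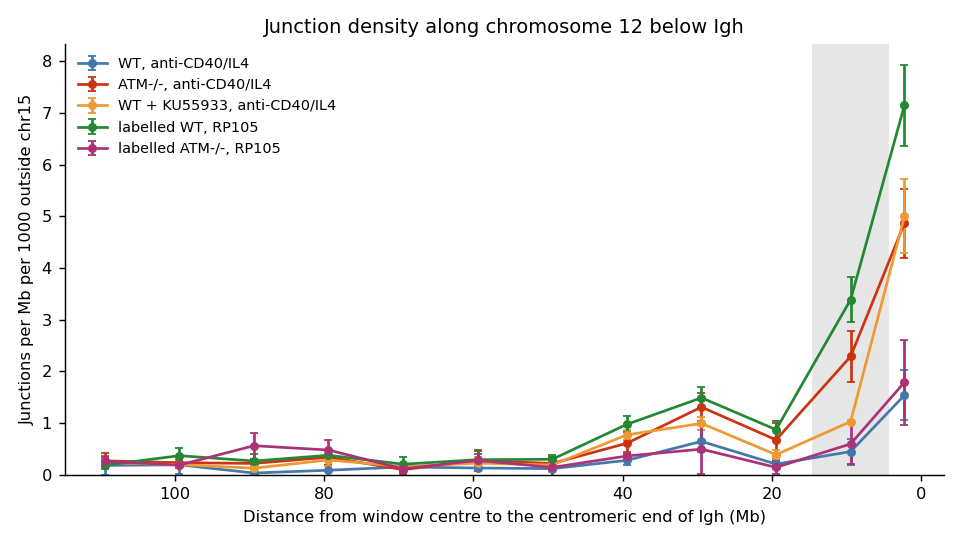
Mean junction density (junctions per Mb per 1000 junctions outside chromosome 15, with SD over the libraries of a group) in 10 Mb windows against the distance of the window centre from the centromeric end of Igh. The last point covers 110 Mb to Igh, the grey band is the interval, and the KU55933 and ATM-/- lines part in the band (1.03 against 2.29) and meet next to Igh (5.00 against 4.87).

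The share of chromosome 12 junctions below Igh that fell in the interval relates it to the rest of the chromosome. It was 26.2% ± 3.51 (SD, n = 3) in ATM-/-, 15.1% ± 0.442 (SD, n = 3) with KU55933 and 13.5% ± 5.64 (SD, n = 4) in WT cells, and 28.5% ± 3.2 and 13.2% ± 7.7 (SD, n = 3 each) in RP105 libraries labelled WT and ATM-/-. ATM-/- and WT libraries did not overlap, but the difference of 12.7 percentage points missed the threshold (two-sided exact permutation test, p = 0.0571, adjusted p = 0.366 over 16 tests). That p is the smallest that this test allows for 3 against 4 libraries, so no share could pass 0.05, unadjusted or adjusted. ATM-/- and KU55933 libraries did not overlap either, with a difference of 11.1 points, nor did the RP105 labels, with -15.3 points for ATM-/- minus WT. Both of those exact permutation tests gave p = 0.1, the smallest that 3 against 3 libraries allow (adjusted p = 0.366). KU55933 and WT overlapped (1.56 points, exact permutation p = 0.8, adjusted p = 0.914).

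Farther from Igh, no window from 60 to 100 Mb was called for ATM-/- against WT. The log2 fold changes were 1.66 (SE 0.48) at 90 to 100 Mb, 0.99 (SE 0.33) at 80 to 90 Mb, 1.03 (SE 0.42) at 70 to 80 Mb and 1.14 (SE 0.82) at 60 to 70 Mb, with edgeR adjusted p of 0.0966 to 0.757. Whether they differ from the interval's own 2.38 was not tested. Windows on the centromeric side of other antigen receptor loci were given the same test. For ATM-/- against WT the log2 fold change was -0.94 in the Igk window (chromosome 6, 50 to 60 Mb) and -0.72 in the Tra/Trd window (chromosome 14, 40 to 50 Mb). In the Igl window (chromosome 16, 0 to 10 Mb) it was 0.12, and all were uncalled (edgeR adjusted p 0.526 to 0.951). The distances of these windows from their loci were not measured.

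**Figure D3:**
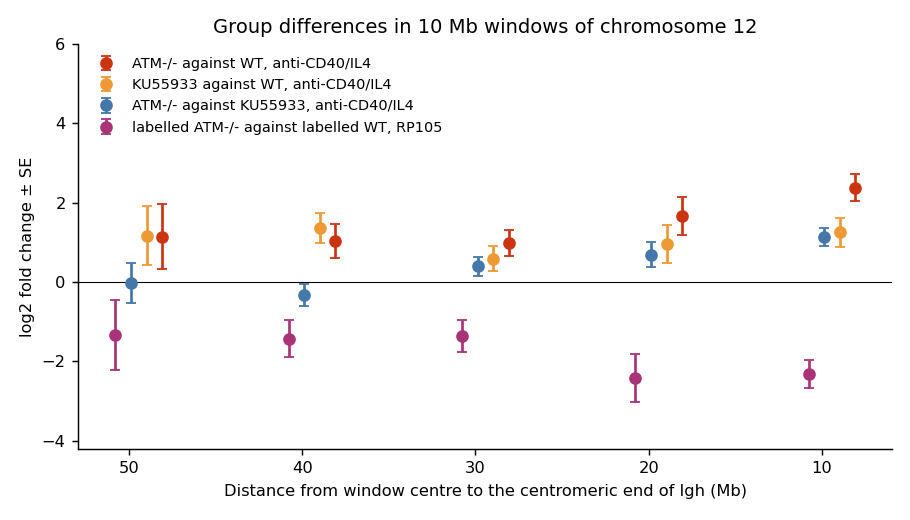
Log2 fold change with its SE (edgeR) in 5 windows of 10 Mb of chromosome 12, against distance from Igh, for 4 comparisons set slightly apart sideways. The rightmost cluster is the interval, where the values are 2.38, 1.25, 1.13 and -2.32.

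Within the interval, junctions were spread over its whole length. The 505 distinct positions fell in 379 of 1000 bins of 10 kb and in 94 of 100 bins of 100 kb. The median gap between neighbouring positions was 12.1 kb, the longest was 315 kb, and no 10 kb bin held more than 5. The fullest 100 kb bins held 13 junctions each, 1 within Foxn3 (100500001 to 100600000, from 6 libraries) and 1 across Setd3, Ccnk and Ccdc85c (109400001 to 109500000, from 8 libraries).

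**Figure D4:**
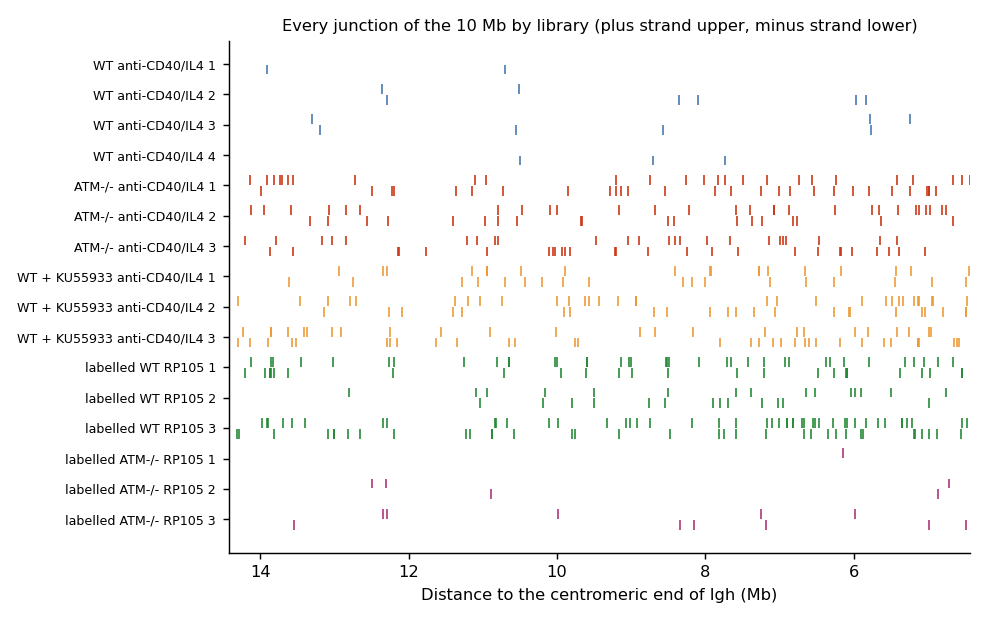
Each junction of the interval as a tick at its distance from the centromeric end of Igh, with 1 row per library, plus strand above and minus strand below. Ticks run from 14.4 to 4.43 Mb with no single pile, and the rows of the WT anti-CD40/IL4 and the ATM-/- labelled RP105 libraries hold 1 to 11 ticks each.

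By 1 Mb, the windows from 100 to 110 Mb held 49, 32, 27, 56, 42, 45, 48, 73, 62 and 77 junctions over all libraries. The lowest was 102 to 103 Mb and the highest 109 to 110 Mb. The 5 Mb nearer Igh had the higher mean density in each of the 5 groups. In ATM-/- cells the density was 1.81 ± 0.437 in the 5 Mb farther from Igh and 2.77 ± 0.687 in the 5 Mb nearer to it, and with KU55933 it was 0.9 ± 0.115 and 1.16 ± 0.0832 (SD, n = 3 each). In WT cells it was 0.409 ± 0.175 and 0.489 ± 0.363 (SD, n = 4). RP105 libraries labelled WT had 2.54 ± 0.586 and 4.23 ± 0.296, and those labelled ATM-/- 0.499 ± 0.436 and 0.697 ± 0.456 (SD, n = 3 each). The share of the interval's junctions that lay in the nearer 5 Mb overlapped between libraries in each of the 4 pairs of groups compared (group means 45.2 to 67.9%).

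**Figure D5:**
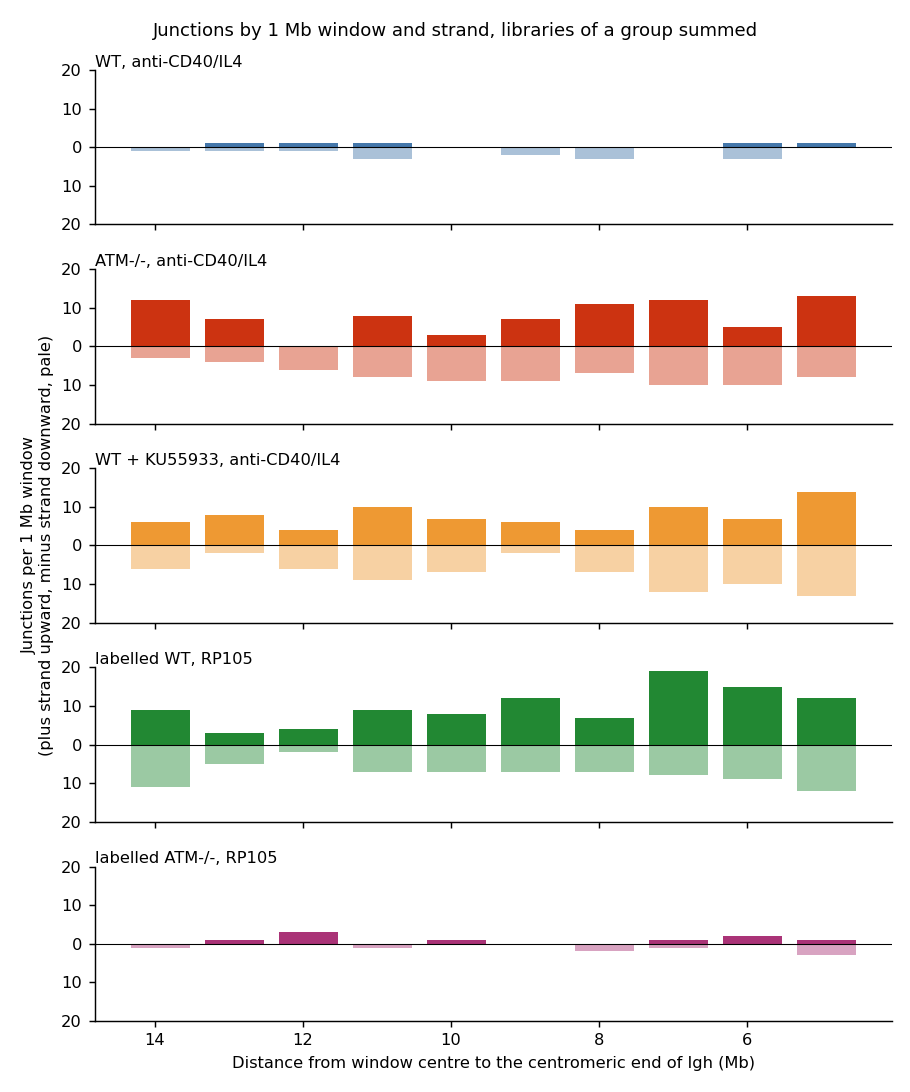
Junctions per 1 Mb window, summed over the libraries of a group, with plus-strand junctions upward and minus-strand junctions downward in a paler shade. Counts are not scaled for depth. The WT anti-CD40/IL4 panel holds at most 4 junctions in a window, the KU55933 panel up to 27 and the panel labelled WT under RP105 up to 27.

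Of the 10 windows of 1 Mb, 107 to 108 Mb gave the clearest difference. It held 0 junctions in all 4 WT anti-CD40/IL4 libraries, 7, 8 and 7 in the ATM-/- libraries, and 6, 5 and 11 with KU55933. Under RP105 it held 6, 6 and 15 in libraries labelled WT and 0, 0 and 2 in those labelled ATM-/-. A floor of 3 junctions over the 4457 of the WT group allows a share of up to 0.0673%. Set against it, the ATM-/- group was 4.79-fold higher, the KU55933 group 2.23-fold and the RP105 group labelled WT 7.9-fold. These ratios leave out the counting error of the higher groups and are no lower bounds. The window was picked from the 10 by these same data.

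All 10 windows had a positive log2 fold change for ATM-/- against WT, with a median of 2.07 beside 0.10 over the 1114 windows tested. Of these windows 0.0898% were called higher, and the 1 called was 107 to 108 Mb (edgeR adjusted p = 0.0207). That call was lost without any of WT replicates 1, 2, 3 or 4 and without ATM-/- replicate 1 or 3, when 0 windows of the interval were called. The largest uncalled values were in the window from 104 Mb, with 0 junctions in WT and 12 in ATM-/- libraries, and at 109 to 110 Mb, with 1 and 21. For KU55933 against WT all 10 were positive with a median of 0.54 beside 0.04 over all windows, and 0.0% of windows were called higher or lower, while an unadjusted p under 0.05 was reached by 3 of the 10 and by 69 of all 1114. With TMM factors 3 of the 10 were called. For ATM-/- against KU55933 all 10 were positive (median 0.99 beside 0.09), 0 of them was called in a background of 0.0898%, and 4 had an unadjusted p under 0.05, as had 83 of all 1114.

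Under RP105, 9 of the 10 windows were lower in libraries labelled ATM-/- (median log2 fold change -2.55 beside 0.01), 0 of them was called by edgeR in a background of 0.0898% (1 by DESeq2), and 6 had an unadjusted p under 0.05, as had 46 of all 1114. The exception was 102 to 103 Mb, with 6 junctions in libraries labelled WT and 3 in those labelled ATM-/-. In the 1 Mb that end at 106 Mb the libraries labelled WT held 9, 3 and 7 junctions and those labelled ATM-/- 0. Against the floor of 3 junctions over the group the ratio was 3.1, without the counting error of the higher group. For RP105 against anti-CD40/IL4 in libraries labelled WT, 4 windows were called higher in a background of 0.539% (those that begin at 100, 104, 107 and 109 Mb). This count fell to 2 without WT anti-CD40/IL4 replicate 1, 3 or 4 and to 1 without RP105 replicate 1 labelled WT. In libraries labelled ATM-/- 0 of 10 was called in a background of 0.0898% lower, and 3 had an unadjusted p under 0.05, as had 73 of all 1114. DESeq2 also called 0 here, for KU55933 against WT and for ATM-/- against KU55933.

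In counts summed over libraries, the strands were close to equal in every group but WT anti-CD40/IL4. ATM-/- libraries held 78 on the plus and 74 on the minus strand, KU55933 libraries 76 and 74, and RP105 libraries labelled WT 98 and 75. The plus share was 51.6% ± 6.93, 51.0% ± 8.17 and 55.7% ± 3.62 (SD, n = 3 each). Outside chromosomes 12 and 15 it was 50.1, 49.2 and 48.9% in the same groups. The WT anti-CD40/IL4 libraries held 5 on the plus and 14 on the minus strand, a plus share of 0.0, 28.6, 42.9 and 0.0% in libraries of 2, 7, 7 and 3 junctions. Those 4 did not overlap the ATM-/- libraries (47.1 to 59.6%), a difference of 33.7 points. The exact permutation test gave p = 0.0571, the smallest that it allows for 3 against 4 libraries (adjusted p = 0.366).

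Fitted strand by strand, the plus-strand junctions of the interval were higher in ATM-/- than in WT cells by a log2 fold change of 3.29 (SE 0.51, edgeR adjusted p = 5.32e-08) and the minus-strand junctions by 1.78 (SE 0.41, edgeR adjusted p = 0.00294). These 2 were the only ones called higher of 473 windows and strands (0.423%). Without WT replicate 3 the plus-strand value was 3.97. The minus-strand call was lost without WT replicate 1 (1.51, adjusted p = 0.158) or 3 (1.67, 0.0575), without ATM-/- replicate 3 (1.60, 0.0777) and with run as a block (1.56, 1.0), over a range of 1.19e-04 to 1.0 in 18 alternatives. A difference between the strands was not tested. With KU55933 the plus strand was called higher than in WT (2.16, SE 0.55, edgeR adjusted p = 0.0237, background 0.423%) and the minus strand was not (0.67, 95% interval -0.18 to 1.51, adjusted p = 0.826). That plus-strand call held in 10 of 17 alternatives and was lost without WT replicate 1, 3 or 4 or KU55933 replicate 1 or 2 (log2 fold changes 1.68 to 2.83), with DESeq2 (2.32) and with the replicate block (1.92).

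ATM-/- exceeded KU55933 on both strands (1.13, SE 0.29, and 1.11, SE 0.29, edgeR adjusted p = 0.0306 for each, background 0.423%). The plus-strand call held in 8 and the minus-strand call in 9 of 16 alternatives. Leaving out ATM-/- replicate 1 or 3 or KU55933 replicate 2 ended both, leaving out ATM-/- replicate 2 or KU55933 replicate 3 the former, and leaving out KU55933 replicate 1 the latter. TMM factors, DESeq2 and run as a random block also ended both. Under RP105 both strands were lower in libraries labelled ATM-/- (plus -2.40, SE 0.45, edgeR adjusted p = 4.86e-05, and minus -2.20, SE 0.48, edgeR adjusted p = 0.00127, background 0.634%), in all 17 alternatives each. Without RP105 replicate 3 labelled ATM-/- the minus-strand value was -3.26. For RP105 against anti-CD40/IL4, libraries labelled WT gained on both strands (plus 4.03, SE 0.48, edgeR adjusted p = 1.36e-14, and minus 2.21, SE 0.40, edgeR adjusted p = 4.52e-06, background 0.846%), in all 17 alternatives each. Without WT anti-CD40/IL4 replicate 3 the plus-strand value was 4.71. Those labelled ATM-/- lost on both (plus -1.66, SE 0.48, edgeR adjusted p = 0.0421, and minus -1.77, SE 0.49, edgeR adjusted p = 0.033, background 0.846%), calls that held in 6 and 10 of 16 alternatives. Leaving out ATM-/- anti-CD40/IL4 replicate 1 or 3 or RP105 replicate 1 or 2 labelled ATM-/- ended both of these, and leaving out RP105 replicate 3 labelled ATM-/- the former, while the minus-strand value was then -2.83. The remaining losses were with DESeq2 and with chromosome 15 kept save for 1 Mb either side of the break on both strands, and with the replicate block, run as a random block and no filter on the plus strand.

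Of the 511 junctions, 233 (45.6%) carried a gene label in the lists, beside 46.8% on chromosome 12 below 100 Mb and 53.3% outside chromosomes 12 and 15. The labels do not tell exons from introns, and no mm9 annotation was used here. There were 61 labels, of which 53 are RefSeq symbols and 5 RefSeq synonyms. Of them 18 had 1 junction, 25 had 2 to 4 and 18 had 5 or more. The share with a label overlapped between libraries in each of the 4 pairs of groups compared.

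Foxn3, a forkhead transcription factor gene, led with 21 junctions from 7 libraries between 100437908 and 100641630, 11 on the plus and 10 on the minus strand. It held 1, 0, 0 and 0 in the WT libraries, 3, 1 and 2 in ATM-/-, 0, 0 and 3 with KU55933, 7, 0 and 4 in RP105 libraries labelled WT and 0 in all 3 labelled ATM-/-. The groups overlapped, and of the 5 groups ATM-/- under anti-CD40/IL4 was the only one with a junction in every library. Unc79, which encodes a subunit of the NALCN sodium channel complex, held 11 junctions between 104224978 and 104420946, 0 in WT, 4 in ATM-/-, 2 with KU55933, 5 in RP105 libraries labelled WT and 0 in those labelled ATM-/-. Ccdc88c, whose product binds Dishevelled in Wnt signalling, held 10 between 102161806 and 102264751, in the same group order 0, 2, 4, 4 and 0. Ccdc85c, a coiled-coil protein gene, also held 10, between 109444953 and 109497441, in the order 0, 2, 5, 2 and 1, and 8 without positions shared within a run.

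These 4 genes were the only ones of the interval with the 10 junctions required for the fit over genes, and 0 of them was called in any of 7 comparisons by edgeR or DESeq2. An unadjusted edgeR p under 0.05 was reached by 1 of the 4 for the RP105 labels, by 3 for RP105 against anti-CD40/IL4 in WT and by 3 for the difference between genotype effects, and over all 162 genes by 4, 26 and 12. Over all genes, 0.0% were called in 4 of these, 0.617% lower with KU55933 against WT, 1.85% lower for RP105 against anti-CD40/IL4 in WT, and 0.617% higher and 1.23% lower for the same in ATM-/-. Their edgeR log2 fold changes for ATM-/- against WT had a median of 2.56, beside 0.00 over the 162 genes tested, and 0 of the 4 had an unadjusted p under 0.05. For the label ATM-/- against WT under RP105 the median was -4.01 (beside 0.00), and Foxn3 had the lowest p (log2 fold change -5.21, SE 2.03, edgeR adjusted p = 0.634). Fitted values for a gene at 0 in a group depend on the prior count and are no bound. Unc79, Ccdc88c and Ccdc85c stood at 0 in WT libraries, and Foxn3, Unc79 and Ccdc88c in RP105 libraries labelled ATM-/-. They passed the filter through the other groups, so the signs of both medians do not test a difference.

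The next 6 labels by count held 6 to 9 junctions each. Slc24a4, a sodium, potassium and calcium exchanger gene, held 9. Ttc7b, part of the complex that places a phosphatidylinositol 4-kinase at the plasma membrane, and Rin3, an activator of Rab GTPases, held 8 each. Itpk1, an inositol phosphate kinase gene, and Evl, an actin regulator of the Ena/VASP family, held 7 each, and 2610021K21Rik, a synonym of Efcab11, held 6. Itpk1 was the only label of these 10 with more junctions in WT anti-CD40/IL4 libraries (1 in each of replicates 2, 3 and 4) than in any other group, where it held 1, 2, 1 and 0. Together the 10 labels held 97 junctions, 19.0% of the interval.

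A list of 11 genes drawn up as long ones, without measured lengths, was hit in all 11 and held 95 junctions (18.6% of the interval), 6 of 19 in WT, 30 of 152 in ATM-/-, 24 of 150 with KU55933, 32 of 173 in RP105 libraries labelled WT and 3 of 17 in those labelled ATM-/-. The list does not hold every long gene of the interval, since junctions labelled Catsperb and Eml1, which are not on it, were spread over longer stretches (102656528 to 102794809 and 109670884 to 109768244) than those of Vrk1 (107254608 to 107292271), which is. Genes with roles in lymphocytes were hit in 7 of 8 cases and held 28 junctions (5.48%). Among them Bcl11b, a transcription factor of T cell development, held 6, Vrk1, a chromatin kinase gene, held 6, Dicer1, the microRNA-processing enzyme gene, held 4, and Tcl1 held 0. The Serpina cluster of protease inhibitor genes was hit in 8 genes with 10 junctions (1.96%), 5 of them in ATM-/-, 3 with KU55933 and 2 in RP105 libraries labelled WT. The lists overlap, and no list was tested.

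At the join, 414 of the 511 junctions had an overlap or insert of at most 10 bases. The other 97, with longer overlaps or inserts, were left out. Of the 414, 69.6% overlapped the bait by 1 to 10 bases, 17.6% were joined directly and 12.8% carried 1 to 10 inserted bases. Outside chromosomes 12 and 15 these shares were 62.6, 22.3 and 15.1%. The median overlap was 2 bases in both. By library, the overlapping share was 71.7% ± 11.2 in ATM-/- (62.2% ± 0.568 outside chromosomes 12 and 15), 64.5% ± 4.62 with KU55933 (62.1% ± 3.5) and 73.0% ± 5.08 in RP105 libraries labelled WT (64.6% ± 2.81; SD, n = 3 each). In WT anti-CD40/IL4 libraries it ranged from 0.0 to 100.0%. These shares were not tested. With KU55933 the mean in the interval lay within 1 SD of the mean elsewhere, by either SD. In ATM-/- libraries it did so by the SD of the interval (11.2) but not by the SD elsewhere (0.568). In RP105 libraries labelled WT it did so by neither SD. RP105 libraries labelled ATM-/- had 83.3% ± 28.9 in the interval, from 13 junctions with such joins, and 62.8% ± 1.07 elsewhere (SD, n = 3).

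Prey in the interval had a median length of 118 bases and a GC content of 48.1% ± 7.63 (SD over junctions) against 46.9% ± 9.32. Prey that begin with a CA repeat made up 0.658% of the interval and 0.38% of the rest in ATM-/-, and 0.0 and 2.83% with KU55933. In WT anti-CD40/IL4 libraries they made up 0.0 and 0.562%. RP105 libraries labelled WT had 1.73 and 8.14%, and those labelled ATM-/- had 2 of 17 and 374 of 2332 prey. Such prey were counted among the junctions outside chromosome 15, over which the interval's share is taken. Whether leaving them out changes a comparison between groups was not tested. Among 483 prey of at least 30 bases, 5 (1.04%) began with 30 bases that lie in a promoter of chromosome 12 in RefSeq's promoter table (GRCm38), against 1.19% of 26384 elsewhere for their own chromosomes. Of the 5, 3 were at predicted genes and the others at Tdp1, the gene of a phosphodiesterase that removes topoisomerase adducts (1 WT junction), and Serpina11 (1 ATM-/- junction). In the 7 WT and ATM-/- anti-CD40/IL4 lists that give a PCR count, the count was 0 for 118 of 171 junctions of the interval (69.0%) and for 63.6% elsewhere.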

How the data were processed

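HTGTS junction lists of 16 libraries in 5 groups were used, with positions on mm9, per the labels. Which aligner, caller and filters were used is not given in the sources used here. Per the file headers, the deposited lists hold an alignment score for each prey, which was not used, and 7 of them hold a PCR count per junction, which was described only. Gene names are those the authors deposited.

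Rows identical in all position columns were counted once (56 dropped, 1 in the interval), 1 broken record was repaired and 3 mitochondrial rows were left out. Position was the prey base at the join. Sequencing runs were inferred from the start of the read names. Junction counts per 10 Mb window (at least 20 junctions), per window and strand (20), per 1 Mb window (10) and per gene label (10) were fitted over all 16 libraries with edgeR 4.0.16 (quasi-likelihood; R 4.3.3), library size being the junctions outside chromosome 15, which holds the break (position 61819433). P-values were adjusted by Benjamini-Hochberg over all features of a comparison, with a threshold of 0.05, and SE is the log2 fold change over the root of F. Shares were compared by two-sided exact permutation tests (SciPy 1.17.1), 16 in all. Shares of single libraries have exact Clopper-Pearson 95% intervals, and floors are 3 junctions over a group. Reads carry no molecular identifiers, so both cover counting error only. Alternatives were TMM factors, DESeq2 1.42.0, other libraries, filters, library sizes, window edges and blocks (limma 3.58.1 for the random block). The random block and the removal of positions shared within a run were added after seeing the data. The edgeR steps were also run on counts simulated with known changes in 1 group and no effect of run. The outcome is not given here.

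The interval, the gene lists and the tests were chosen with earlier results of these data known. Genes named are the 10 labels with most junctions (ties by position), members of 3 lists by count, and labels at the sequences or fullest bins. Those at promoter matches were chosen after their values were seen.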

Additional observations from a re-analysis of the deposited data

Results flagged for a closer look

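In WT anti-CD40/IL4 replicate 1 the share of the interval's junctions in the 5 Mb nearer Igh was 0.0%, against 57.1 to 66.7% in the other 3 WT libraries, a gap beyond Dixon's 95% limit. It rests on 2 junctions. The limit was applied to 5 shares of this group alone, and chance passes it in about 1 in 20 of such uses.

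The difference between the genotype effects under RP105 and under anti-CD40/IL4 passed the test in the interval as a whole (log2 -4.7), on the plus strand (-5.69) and on the minus strand (-3.98). Without RP105 replicate 3 labelled ATM-/- the first and the last were -5.29 and -5.04, and without WT anti-CD40/IL4 replicate 3 the plus-strand value was -6.36. By 1 Mb it passed in the windows that begin at 100 Mb (-6.12), 104 Mb (-7.7), 107 Mb (-8.43) and 109 Mb (-4.97) and in the one that ends at 106 Mb (-8.26), in a background of 0.539% of windows called lower. In those that begin at 104 and 107 Mb or end at 106 Mb a group stood at 0, so those sizes depend on the prior count and are no bound. The count of 5 windows fell to 3 without WT anti-CD40/IL4 replicate 1 or 3, ATM-/- anti-CD40/IL4 replicate 1 or RP105 replicate 2 or 3 labelled ATM-/-, and to 2 without RP105 replicate 1 labelled WT.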

How the results depend on the processing

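The interval's own log2 fold change kept its direction in all 7 comparisons under every alternative run. Apart from leave-one-out fits, 96 of its values kept their side of the threshold. The exceptions were KU55933 against WT with TMM factors (1.32) and without positions shared within a run (1.25), both then called, and ATM-/- against KU55933 with run as a random block (1.13) and in the 5 Mb farther from Igh (0.98), and RP105 against anti-CD40/IL4 in ATM-/- in the same 5 Mb (-1.64), all then uncalled. Leaving out single libraries gave 0.92 to 1.58 for KU55933 against WT. With all but 1 Mb either side of the break kept on chromosome 15, the difference between genotype effects was -4.11 (plus strand -5.10, minus strand -3.39).

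On the plus strand calls were lost for KU55933 against WT with DESeq2 (2.32), for ATM-/- against KU55933 with TMM factors (1.07), DESeq2 (1.00) and run as a random block (1.15), and for RP105 against anti-CD40/IL4 in ATM-/- with DESeq2 (-1.89), run as a random block (-1.54), no filter (-1.66) and only 1 Mb around the break left out (-1.47). On the minus strand they were lost for ATM-/- against WT with run as a block (1.56), for ATM-/- against KU55933 with TMM factors (1.06), DESeq2 (1.02) and the random block (1.10), and for RP105 in ATM-/- with DESeq2 (-2.04) and 1 Mb left out (-1.58). Leave-one-out ranges were 1.68 to 2.83 for KU55933 against WT (plus), 0.99 to 1.24 and 0.93 to 1.40 for ATM-/- against KU55933 (plus, minus), -1.92 to -1.44 and -2.83 to -1.38 for RP105 in ATM-/- (plus, minus) and 1.51 to 2.09 for ATM-/- against WT (minus).

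Called 1 Mb windows for ATM-/- against WT numbered 2 with TMM factors, only the groups compared or run as a random block, and 0 with DESeq2, run as a block, no filter or windows moved by 0.5 Mb. For KU55933 against WT they numbered 3 with TMM factors. For the RP105 labels they numbered 1 with TMM factors, DESeq2 or the random block and 2 with only the groups compared. For the difference between genotype effects they numbered 8 with TMM factors or DESeq2 and 1 with run as a block. Leave-one-out ranges were 0 to 1 for ATM-/- against WT, 1 to 4 for RP105 in WT and 2 to 5 for the difference. With only the groups compared, 1 gene was called for RP105 in WT.

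Differences in shares changed sign, all uncalled, in percentage points. Plus-strand share, ATM-/- minus KU55933, was -0.212 without shared positions and -1.56 and -3.29 with the interval moved 1 Mb down and up, and -3.81 to 4.23 leaving out libraries. For the RP105 labels it was -11.3 within a run and -3.02 to 24.3 leaving out libraries. The share nearer Igh was -11.1 (moved down), -0.561 (within a run) and -11.0 to 19.0 for the RP105 labels, -3.13 (moved up) for ATM-/- minus KU55933, -9.8 within a run for ATM-/- minus WT, and -4.04 to 18.2 for KU55933 minus WT. The share with a gene label was 17.6 within a run for ATM-/- minus WT, and leaving out libraries -1.01 to 5.49 for ATM-/- minus KU55933 and -12.5 to 37.5 for the RP105 labels. The share of chromosome 12 was -0.991 to 3.35 for KU55933 minus WT.

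Same-numbered libraries did not pair: of 30 pairs, 3 correlated above 0.1 (-0.138 to 0.148). With the replicate block the interval's log2 fold changes were 2.39 for ATM-/- against WT and 1.26, 1.13, -2.31, 2.96, -1.73 and -4.70 for KU55933 against WT, ATM-/- against KU55933, the RP105 labels, RP105 in WT, RP105 in ATM-/- and the difference between genotype effects, with no change of call. The block ended the plus-strand calls for KU55933 against WT (1.92) and RP105 in ATM-/- (-1.64), and called 0 of the 10 windows of 1 Mb for ATM-/- against WT, 2 for RP105 in WT and 2 for the difference. The causes of these changes were not tested. Libraries of 1 to 11 junctions in the interval limit every value of the WT anti-CD40/IL4 and the ATM-/- labelled RP105 groups.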
